A study of Mus musculus with 12 samples.

Results

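The nuclear genes of the respiratory chain and ATP synthase were described in RNA-seq of mouse bone marrow. They were chosen by symbol from the table of counts: Nduf genes of the a, b, c, s and v series, Sdha to Sdhd, symbols starting with Uqc or Atp5, and Cox4 to Cox8 genes, without 8 symbols that end in -ps. These rules gave 95 of the 53801 genes in the table. By known function, 44 of them belong to complex I, 4 to complex II, 11 to complex III, 20 to complex IV and 16 to complex V. Ndufa4, which carries a complex I name, was counted with complex IV, where its protein is now placed. Of the 95, 11 code for assembly factors rather than for subunits.

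The marrow came from C57BL/6N mice in 4 groups of 3 libraries each. Sham mice had the sham operation, Sham-E mice had it with EMPA, MI mice had the LAD (a coronary artery) ligated, and MI-E mice had the ligation with EMPA. The strain and the tissue are shared by all groups, and the protocol describes an opened chest. No source used here gives the time after surgery, the dose and route of EMPA, or the age and sex of the animals. No label says that each library came from its own mouse, so the p-values measure the spread between these libraries, which may be technical. In RNA from whole marrow, fewer cells of a type and less RNA per cell cannot be told apart.

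The respiratory chain sits in the inner mitochondrial membrane. Complex I takes electrons from NADH and complex II takes them from succinate, complex III passes them to cytochrome c, and complex IV passes them to oxygen, while complexes I, III and IV pump protons out of the matrix. Complex V, the ATP synthase, lets protons flow back and makes ATP. Most subunits are coded in the nucleus and imported, and a few are coded by mitochondrial DNA, so the complexes mix products of both genomes. In marrow the chain serves many kinds of cell, among them red cell precursors, which make heme inside mitochondria.

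The libraries held 21175087 to 24606783 counts. Marrow markers were abundant: the summed level of 12 erythroid markers ran from 7343 to 50362 CPM (counts scaled to the library's total) and that of 11 mature neutrophil markers from 21654 to 38885 CPM. The 15 skeletal muscle markers summed to 5.32 to 16.6 CPM, and 3 of the 4 testis markers were at 0 in every library. Some measures moved with the groups. The mean insert length, recovered from the deposited counts and TPM (the authors' levels corrected for transcript length), was 284 to 287 bp in Sham, 271 to 280 bp in Sham-E, 263 to 266 bp in MI and 281 to 283 bp in MI-E. The share of counts from mitochondrial genes was 2.23% to 3.58% in MI and 1.33% to 1.87% in the other 9 libraries. The 10 proliferation markers summed to 3414 to 3807 CPM in MI, 4278 to 5102 CPM in Sham and 4064 to 5418 CPM in MI-E. The 11 B lineage markers summed to 591 to 859 CPM in MI, 1228 to 1810 CPM in Sham and 785 to 936 CPM in MI-E. The 6 stroma and bone markers summed to 93.6 to 161 CPM in MI, 170 to 296 CPM in Sham and 212 to 348 CPM in MI-E. Sham-E overlapped MI in each of these lists, at 3564 to 5514, 485 to 1428 and 71.6 to 315 CPM. Of the stroma and bone markers, 1 was lower in MI than in Sham at an edgeR adjusted p under 0.05. Of the mature neutrophil markers, 2 of 11 were higher in MI by the same rule, while their sums overlapped. In MI-E against Sham-E the 5 megakaryocyte markers summed to 180 to 215 and 57.2 to 98.2 CPM, and the erythroid markers had a median log2 difference of 0.54, with 24360 to 43646 and 7343 to 34940 CPM. The library Sham-E 1 stood apart: its erythroid sum of 7343 CPM was the lowest of the 12, as was its B lineage sum of 485 CPM, with Rag1 at 1.21 CPM against 185 and 207 in the other 2 Sham-E libraries. The part of these measures in the results below was not tested.

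Levels were compared between genes in TPM. Atp5b, the catalytic beta subunit of ATP synthase, had the highest level of all members, with a mean of 1277 TPM over the 12 libraries and a range of 1139 to 1529. Its partner Atp5a1, the alpha subunit, had a mean of 495.6 TPM. Atp5e, the epsilon subunit of the rotor stalk, followed at 726 TPM, and Atp5h, a subunit of the outer stalk, at 529 TPM. In complex IV the highest means were those of Cox4i1 at 745 TPM, Cox6a1 at 734 TPM and Cox6c at 635 TPM. The ranges of Cox4i1 and Cox6a1 overlapped across libraries, so their order is not beyond the spread. In complex III the small subunits Uqcrh (456 TPM), Uqcr10 (419 TPM) and Uqcrq (322 TPM) stood above Uqcrc1, a large scaffold subunit with a mean of 208.5 TPM, the Rieske iron-sulfur protein Uqcrfs1 (137.7 TPM) and Uqcrc2 (98.0 TPM).

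Over all its 44 members, complex I had a median of 83.0 TPM, against 109 TPM in complex II, 176 in complex III, 194 in complex IV and 249 in complex V. Over its 36 subunits, without the assembly factors, the median was 108 TPM in Sham, 96.1 in Sham-E, 91.6 in MI and 104 in MI-E, beside 108, 109, 110 and 101 TPM for complex II. Ndufa3 (284 TPM), Ndufa6 (243 TPM) and Ndufb7 (241 TPM), all small accessory subunits, had the highest means of complex I over the 12 libraries. That order did not hold in MI, where Ndufa3 had a mean of 127 TPM, Ndufa6 268 and Ndufb7 214. The core subunits Ndufv1 (69.5 TPM) and Ndufs1 (47.8 TPM), which carry electrons from NADH toward ubiquinone, were below them. In complex II the anchor Sdhd and the iron-sulfur subunit Sdhb were close, with means of 127 and 125 TPM, above the flavoprotein Sdha at 92.2 TPM and the other anchor, Sdhc, at 85.3 TPM. Several assembly factors were low, with Ndufaf5 at 5.72 TPM, Ndufaf4 at 8.90, Ndufaf7 at 9.61, Uqcc1 at 17.1 and Uqcc3 at 27.0, while Uqcc2 had 73.0 TPM. The lowest members were isoforms of complex IV, described further on. Atp5s, a factor named with ATP synthase, had a mean of 10.6 TPM, against 193 TPM for the next lowest complex V member, Atp5j.

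In the test, 90 of the 95 members passed the filter on low counts, among 15119 genes. Ndufa4l2, Cox7a1, Cox8b, Cox7b2 and Cox8c did not. The test was edgeR's quasi-likelihood test with Benjamini-Hochberg adjustment over all 15119 genes. Fold changes are log2 differences of counts scaled to the library size adjusted by TMM, with their standard error (SE).

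The comparison of MI with Sham asks how ligation relates to marrow expression without EMPA. Among the members, 2 rose and none fell at an adjusted p under 0.05 in edgeR, both of them accessory subunits of complex I. That is 2.22% of the 90 members, beside 0.417% of all genes tested. Ndufa8 is a subunit on the intermembrane space side of complex I. Its scaled counts were 34.1, 33.9 and 32.6 CPM in Sham, 40.8, 33.9 and 32.9 in Sham-E, 54.9, 47.5 and 54.8 in MI and 53.1, 47.1 and 47.8 in MI-E. Every MI and MI-E library was above every Sham and Sham-E library. From Sham to MI, Ndufa8 rose by 0.64 ± 0.12 (log2, SE, n = 3 per group; edgeR adjusted p = 0.0471). Ndufs4 belongs to the part of complex I that oxidises NADH, and its loss in mice gives a severe brain disease. Its scaled counts were 33.7, 32.9 and 33.5 CPM in Sham, 38.1, 35.3 and 38.4 in Sham-E, 55.2, 49.4 and 48.5 in MI and 37.9, 46.7 and 42.5 in MI-E. The MI libraries were the highest of the 12, and MI-E overlapped Sham-E. From Sham to MI, Ndufs4 rose by 0.61 ± 0.12 (log2, SE, n = 3 per group; edgeR adjusted p = 0.0465). Both calls lie just inside the threshold and end under several other settings: the adjusted p was 0.0528 for Ndufa8 and 0.0505 for Ndufs4 with limma-voom, and 0.104 and 0.140 on the TPM scale. With correction for length and GC content both calls also ended, at 0.0503 and 0.0544, and 2 others were made, beside 77 of all 15119 genes. These were Cox8a at 0.87 (adjusted p = 0.0320) and Uqcr10, a small complex III subunit, at 0.72 (adjusted p = 0.0412). With 1 library left out at a time, both calls held in 3 of 12 fits, those without MI 2, Sham-E 1 or Sham-E 3. In TPM, Ndufa8 was at 71.7 ± 2.98 in Sham and 97.3 ± 4.96 in MI, and Ndufs4 at 56.4 ± 2.44 and 71.3 ± 7.04 (SD, n = 3).

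The promoter stretches of these genes and of 3 short members with low MI counts, Atp5k, Uqcr11 and Atp5e, are shown because genes of this chain are known to be read by the factors NRF1, ETS family members (NRF2) and YY1. Each is the 120 bases before the RefSeq start on build GRCm38.p6, 5′ to 3′ on the gene's strand, the minus strand for all 5. Capitals mark exact matches to CGCANGCG (NRF1), CCGGAAG (ETS) or AAGATGG (YY1) on either strand. The stretches lie at chr2:36049339-36049458 (Ndufa8), chr13:114388095-114388214 (Ndufs4), chr5:108434400-108434519 (Atp5k), chr10:80406822-80406941 (Uqcr11) and chr2:174464102-174464221 (Atp5e).
Ndufa8: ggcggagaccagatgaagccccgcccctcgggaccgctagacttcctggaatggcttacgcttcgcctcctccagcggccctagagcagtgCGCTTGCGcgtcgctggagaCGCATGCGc
Ndufs4: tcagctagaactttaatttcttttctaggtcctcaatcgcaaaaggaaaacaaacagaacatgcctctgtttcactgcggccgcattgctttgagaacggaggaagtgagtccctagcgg
Atp5k: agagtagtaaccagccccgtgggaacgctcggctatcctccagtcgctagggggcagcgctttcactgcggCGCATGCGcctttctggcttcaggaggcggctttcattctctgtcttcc
Uqcr11: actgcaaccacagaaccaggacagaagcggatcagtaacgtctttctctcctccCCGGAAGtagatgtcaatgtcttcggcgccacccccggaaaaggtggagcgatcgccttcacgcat
Atp5e: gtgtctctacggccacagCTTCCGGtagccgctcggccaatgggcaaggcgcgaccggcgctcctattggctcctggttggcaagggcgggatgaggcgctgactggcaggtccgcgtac

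Ndufa8 holds 2 NRF1 matches in its last 29 bases before the start, and the one nearest the start reads as a match on both strands. Atp5k holds 1 NRF1 match, also readable on both strands, and Uqcr11 and Atp5e hold 1 ETS match each. The NRF1 match of Uqcr11 that spans its start, the ETS match of Atp5k and the YY1 match of Ndufs4 downstream of their starts lie outside the letters shown. The RefSeq table gave 82 promoters for 77 of the 95 members, each with 250 bases before and 50 after the start. NRF1 letters stood in 39% of the 82 and in 8.21% of all 32851 promoters, ETS letters in 22% and 8.86%, and YY1 letters in 14.6% and 6.34%. At least 1 of the 3 was found in 62.2% of member promoters and 20.8% of all. By gene, NRF1 letters occurred for 9 of 13 complex V members, 13 of 39 in complex I, 4 of 8 in complex III, 2 of 3 in complex II and 1 of 14 in complex IV. The median GC content was 57.5% in member promoters and 52.67% in all, and its part in these shares was not tested. A match describes letters and not binding.

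Other members lay near the threshold in MI against Sham. The edgeR differences were 0.59 ± 0.12 for Cox8a, a small complex IV subunit (adjusted p = 0.0519), 0.52 ± 0.13 for Atp5h (adjusted p = 0.0688) and 0.39 ± 0.11 for Sdhb, the iron-sulfur subunit of complex II (adjusted p = 0.0986). Cox8a stood at 103, 121 and 109 CPM in Sham and 169, 153 and 178 CPM in MI. Sdhb stood at 91.8, 83.4 and 81.8 CPM in Sham and 108, 106 and 122 CPM in MI. In each of these pairs the lowest MI library was above the highest Sham library. Cox5b, a complex IV subunit that binds zinc, differed by 0.43 ± 0.12 (edgeR adjusted p = 0.101) and Ndufaf7, an assembly factor of complex I, by 0.62 (edgeR adjusted p = 0.0941).

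In the opposite direction, Atp5k, the small e subunit of ATP synthase, which helps pairs of the enzyme form, had 246, 245 and 251 TPM in Sham, 262, 242 and 207 in Sham-E, 107, 37.3 and 22.5 in MI and 282, 243 and 247 in MI-E. The MI libraries were the lowest of the 12 and were spread more widely than any other group. The edgeR difference between MI and Sham was -1.57 ± 0.37 (log2, SE; adjusted p = 0.0693), from 270, 87 and 56 counts in MI. Ndufa2, an accessory subunit of complex I, had 46.8, 48.9 and 41.1 CPM in Sham and 40.0, 23.4 and 25.8 CPM in MI, a difference of -0.62 ± 0.20 (edgeR adjusted p = 0.133). The 3 MI values were below the 3 Sham values.

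**Figure D1:**
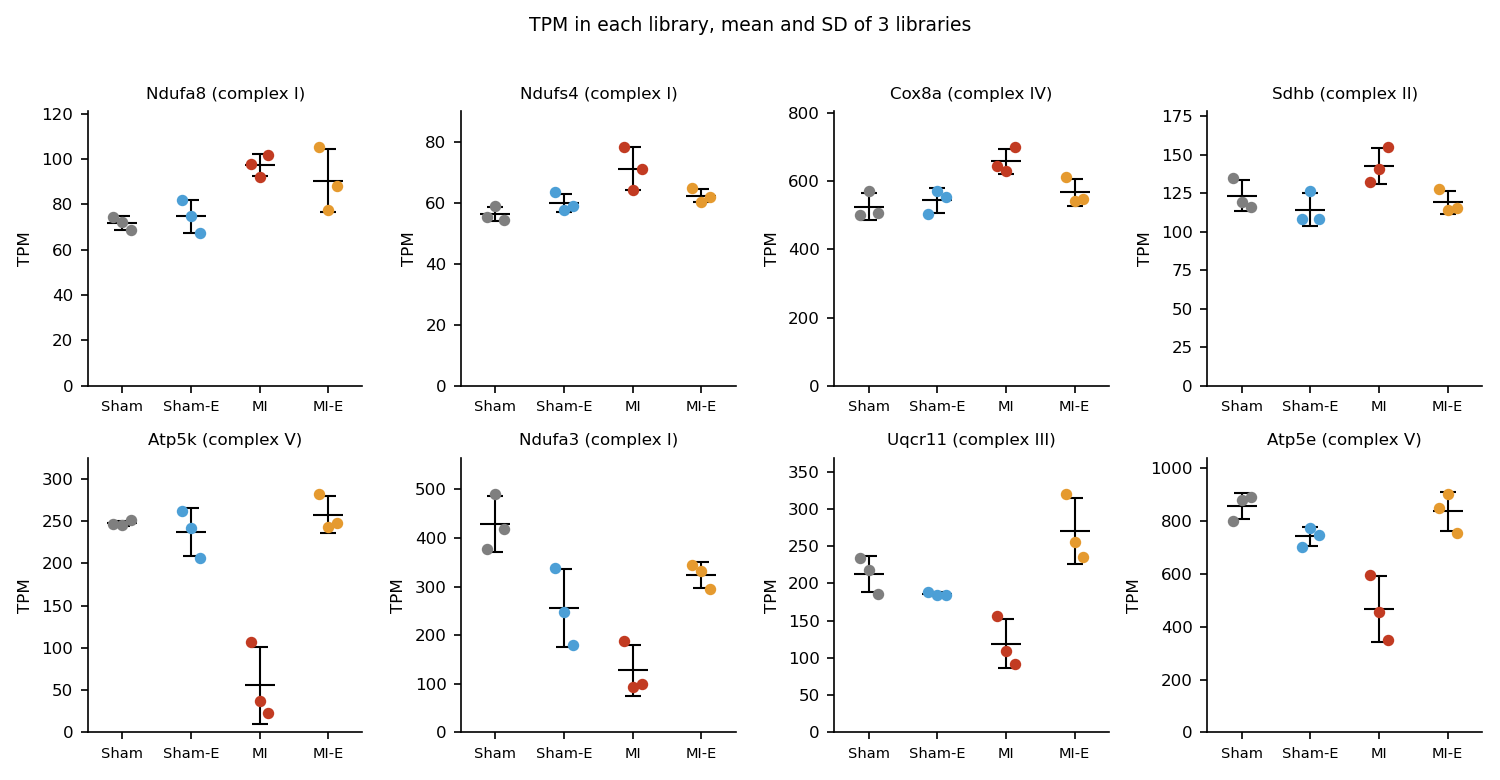
TPM (vertical axis) of 8 members in each library by group, with points for libraries and lines for the mean and SD of 3. Ndufa8, Ndufs4, Cox8a and Sdhb have their highest group mean in MI, and Atp5k, Ndufa3, Uqcr11 and Atp5e their lowest.

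As a group, the members divided. The median log2 difference between MI and Sham was 0.09 for the 90 members and 0.02 for all genes, and 56 of 90 were positive. By complex, the medians were 0.09 (I), 0.17 (II), 0.07 (III), 0.17 (IV) and 0.10 (V). An unadjusted p under 0.05 was found for 26 of 90 members, 21 higher and 5 lower, which is 28.9% beside 19.5% of all genes. The MI libraries lay wholly above Sham for 22 members (24.4%, beside 13.4% of all genes) and wholly below for 5 (5.56%, beside 13.8%). DESeq2 called 9 members (6.41% of all genes with an adjusted p): Ndufa8, Ndufs4, Ndufaf7, Sdhb, Cox4i2, Cox5b, Cox8a and Atp5h higher and Atp5k lower. On log2(TPM + 1), limma called 7 (2.18% of all genes), all lower in MI: Atp5k, Ndufa3, Atp5e, Ndufa2, Uqcr11, Ndufa5 and Atp5j2. Of the 276 genes called on that scale, 233 were lower. Atp5j2 differed by -0.80 there but by 0.34 in counts, and Ndufa3 by -1.81 and -0.44. The recovered length of Atp5j2 was 618 bases in Sham and 926 in MI, and that of Ndufa3 357 and 432. Limma-voom called none. Without the library Sham-E 1, which belongs to neither group but enters the filter, the scaling and the shared estimate of spread, edgeR called 8 members, beside 7.9% of all genes. On the TPM scale the median of all genes was -0.13, and the members' median lay 0.03 above it.

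**Figure D2:**
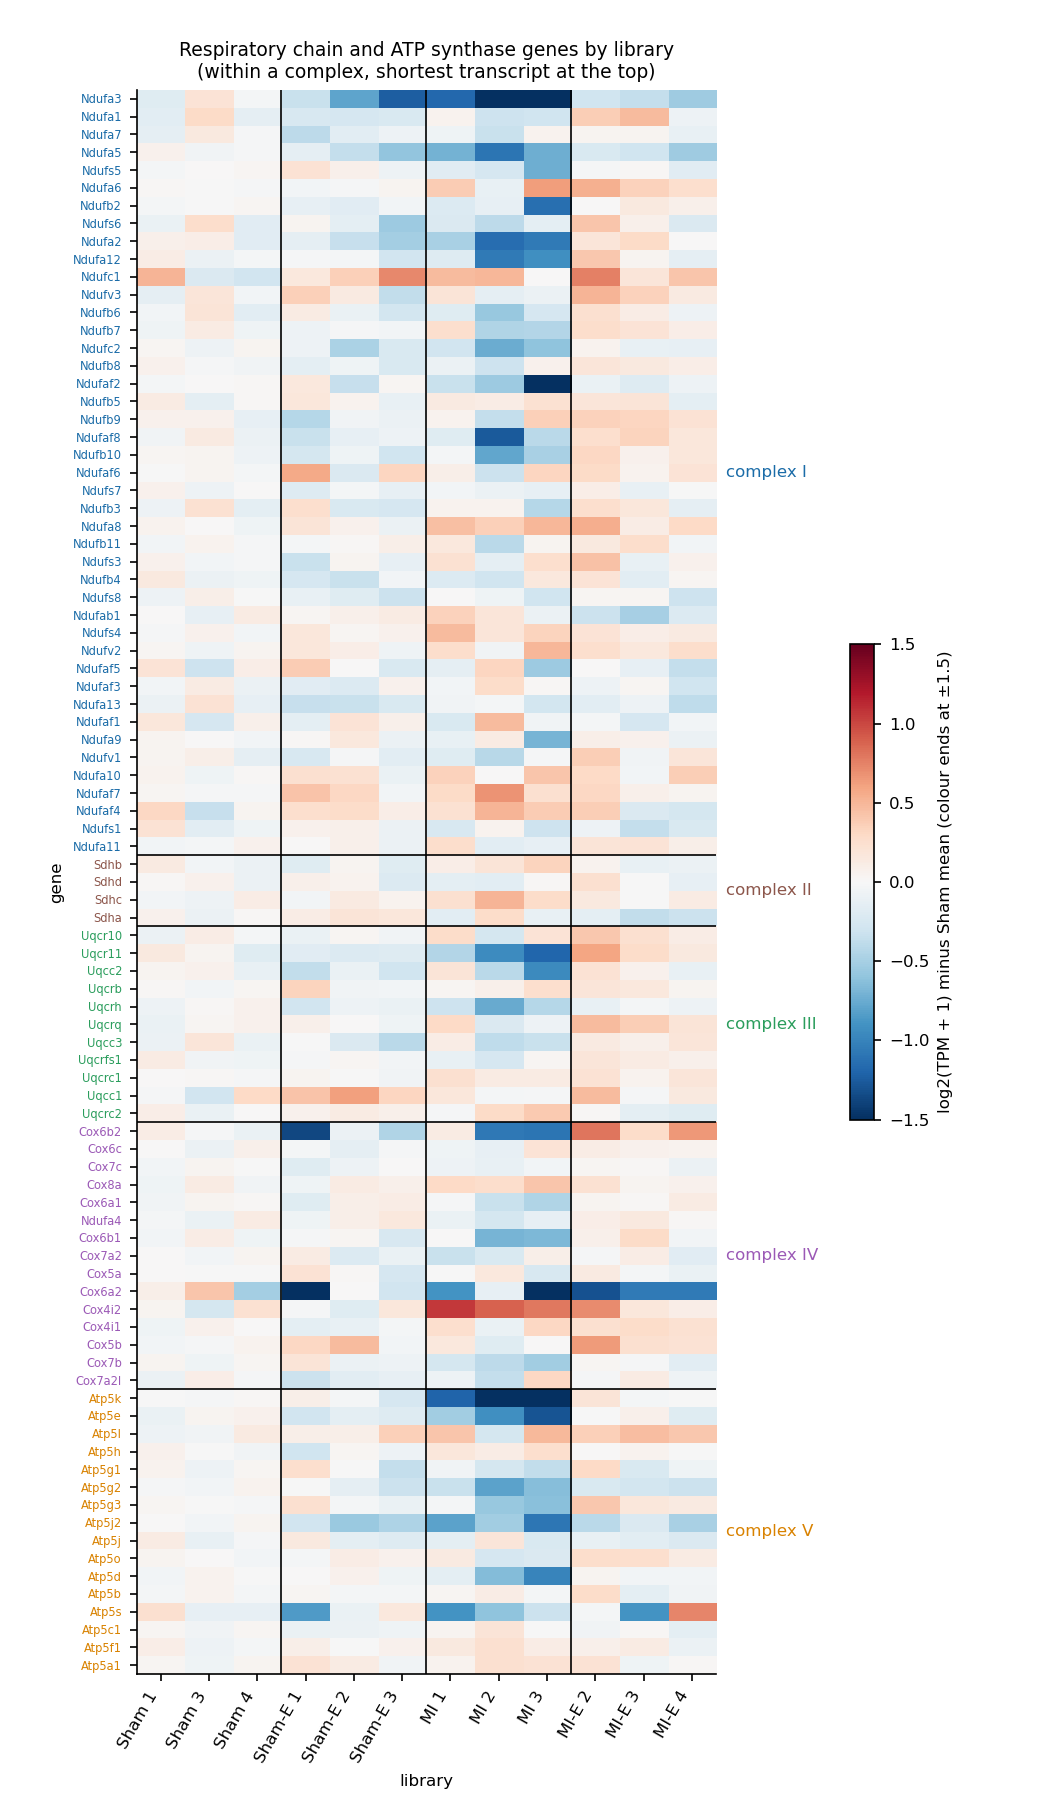
Log2(TPM + 1) of the tested members, with 1 not drawn, in each library (columns), minus the gene's Sham mean, on a colour scale that ends at ±1.5; library numbers are those of the table's columns. Blue in MI gathers at the top of complexes I and V, among the shortest transcripts, with Atp5k, Ndufa3 and Uqcr11 the deepest in their complexes.

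The split went with transcript length only in part. Short members stood on both sides, with Uqcr10 at 0.43 and Atp5k at -1.57. Members are short: their recovered length had a median of 730 bases, against 2407 bases for all tested genes, and 68.9% of them were under 1000 bases against 10.8% of all. Below 450 bases, the MI minus Sham median was -0.46 for 6 members and -0.38 for 247 other genes. From 450 to 700 bases it was -0.01 for 34 members and 0.04 for 398 other genes, and from 700 to 1000 bases 0.12 for 22 members and 0.08 for 858. At 1000 bases or more it was 0.15 for 28 members and 0.03 for 12953 other genes. There, 11 of 28 members had all MI libraries above Sham (39.3%, beside 13.5% of the other genes of that length). Across members, log2 difference and length had a Spearman correlation of 0.25, beside -0.05 across 14546 genes with a length. The genes share the same 12 libraries and so are not independent. Summed TPM of the members under 450 bases was 2337 in Sham, 1968 in Sham-E, 1360 ± 316 (SD, n = 3) in MI and 2395 in MI-E, while that of members of 1000 bases or more was 3992, 3990, 4212 and 4092. A fit corrected for length and GC content gave a members' median of 0.10, beside 0.06 for all genes. Without the correction these medians were 0.09 and 0.02. Insert length was shortest in MI, and its part in these differences was not tested.

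**Figure D3:**
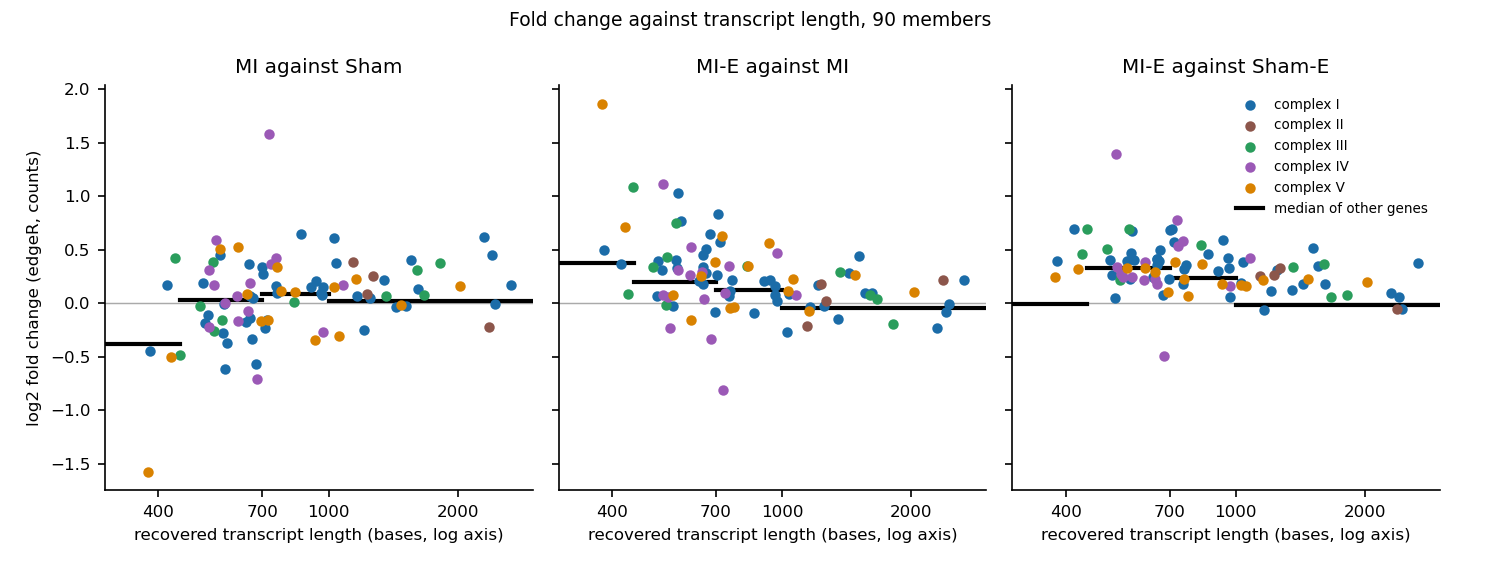
Log2 fold change from counts (edgeR, vertical axis) against recovered transcript length in bases (log axis) for the 90 members in 3 comparisons, coloured by complex; black bars are medians of other genes in the same length range. In MI against Sham the bar under 450 bases sits at -0.38, and in MI-E against MI it sits at 0.37.

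The comparison of MI-E with MI asks how EMPA relates to expression after ligation. It shares the MI libraries with the comparison above, so a low or high MI value enters both with opposite sign. No member passed an adjusted p under 0.05 in edgeR (0.00661% of all genes did). At an unadjusted p under 0.05 there were 25 of 90, 24 of them higher in MI-E, which is 27.8% beside 17.4% of all genes. DESeq2 called 6 (3.4% of all genes): Atp5e, Atp5g3, Atp5k, Ndufa2, Uqcr11 and Uqcrq. Limma on log2(TPM + 1) called 4 (0.617% of all genes): Atp5k, Ndufa2, Ndufa3 and Uqcr11, and limma-voom none. All these calls were higher in MI-E. The edgeR count depends on the library MI 1: without it 18 members passed, all higher in MI-E, beside 6.39% of all genes, with Atp5k at 2.67 (edgeR adjusted p = 4.88e-04), Uqcr11 at 1.37 (0.00350) and Ndufa2 at 1.30 (0.00771). In that fit MI is represented by 2 libraries.

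Uqcr11, a small accessory subunit of complex III, had 235, 217 and 186 TPM in Sham, 189, 184 and 185 in Sham-E, 156, 110 and 92.1 in MI and 321, 256 and 235 in MI-E. The MI libraries were the lowest of the 12, and the lowest MI-E library was level with the highest Sham one. In counts, MI-E minus MI was 1.09 ± 0.19 for Uqcr11 (edgeR adjusted p = 0.0847). Atp5e, of the rotor stalk, had 597, 454 and 349 TPM in MI and 850, 904 and 756 TPM in MI-E, with a count difference of 0.71 (edgeR adjusted p = 0.116). Its Sham values of 800, 880 and 892 TPM overlapped those of MI-E. For Atp5k the count difference was 1.86 ± 0.38 and for Ndufa2 1.03 ± 0.20, each at an edgeR adjusted p of 0.0847. Uqcrq, another small complex III subunit, differed by 0.75 (adjusted p = 0.112). Atp5g3, which codes for the same c subunit of the proton-carrying ring as Atp5g1 and Atp5g2, differed by 0.63 (adjusted p = 0.136). In complex I, Ndufv1, which binds NADH, differed by 0.44 ± 0.13 (adjusted p = 0.141), from 71.4, 57.1 and 79.5 CPM in MI to 99.0, 87.4 and 96.3 CPM in MI-E.

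Members with higher counts in MI than in Sham took different courses from MI to MI-E. Ndufs4 differed by -0.27 between MI-E and MI, and its MI-E libraries were all below MI. Cox8a differed by -0.23 ± 0.12 and Sdhb by -0.21 ± 0.11, also with every MI-E library below MI, while Ndufa8 overlapped with a difference of -0.09 ± 0.12. Cox5b differed by 0.35 ± 0.12, with every MI-E library above MI. None of these passed the test. Together the members' median was 0.21, against -0.02 for all genes, with 70 of 90 positive. The complex medians were 0.21 (I), 0.10 (II), 0.29 (III), 0.10 (IV) and 0.24 (V), and with 1 library left out they ranged from 0.10 to 0.31, 0.06 to 0.14, 0.14 to 0.32, 0.02 to 0.22 and 0.20 to 0.25. The MI-E libraries lay wholly above MI for 21 members (23.3%, beside 11.6% of all genes) and wholly below for 4 (4.44%, beside 10.1%).

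This difference also went with length. The median was 0.61 for members under 450 bases and 0.37 for other genes of that length, 0.30 and 0.20 from 450 to 700 bases, 0.22 and 0.12 from 700 to 1000 bases, and 0.08 and -0.04 at 1000 bases or more. The Spearman correlation with length was -0.40 across members and -0.24 across all genes with a length. A fit corrected for length and GC content gave a members' median of 0.01, beside -0.06 for all genes. It left no member called, beside 1 of all 15119 genes.

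In Sham-E against Sham, where EMPA was given without ligation, no member passed in edgeR (0.0% of all genes did), and none had an unadjusted p under 0.05, beside 1.9% of all genes. DESeq2, limma-voom and limma on log2(TPM + 1) called none. The median was 0.01 for members and 0.01 for all genes, with complex medians from -0.03 (I) to 0.05 (V). The Sham-E libraries lay wholly above Sham for 2 members (2.22%, beside 4.52% of all genes) and wholly below for 7 (7.78%, beside 4.46%), 6 of the 7 in complex I. Ndufs4 was among those above, at 0.16 ± 0.12, and Ndufb8, an accessory membrane arm subunit, among those below, at -0.17 ± 0.12. Ndufa3 had 377, 491 and 419 TPM in Sham and 339, 247 and 181 TPM in Sham-E. Its Sham-E libraries were all below Sham on that scale, but they overlapped in scaled counts, with a difference of -0.34 ± 0.20.

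The comparison of MI-E with Sham-E asks how ligation relates to expression when both groups had EMPA. No member passed in edgeR (0.0% of all genes did), with a smallest adjusted p of 0.244. The members nevertheless lay to 1 side: 86 of 90 differences were positive, the median was 0.32 against 0.00 for all genes, and 36 members had an unadjusted p under 0.05, all higher in MI-E, which is 40% beside 13.4% of all genes. The MI-E libraries lay wholly above Sham-E for 48 members (53.3%, beside 11.7% of all genes) and wholly below for none (0%, beside 12.2%). By complex, that was 23 of 44 in complex I, 2 of 4 in II, 7 of 11 in III, 9 of 15 in IV and 7 of 16 in V. DESeq2 called 4 (1.11% of all genes), Cox5b, Cox6b2, Ndufb8 and Ndufv1, and both limma fits none. Without the library Sham-E 1 edgeR called 0 members, beside 117 of all 15496 genes tested, and the median was 0.35.

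Of the accessory subunits of complex I, 29 of 29 had positive differences, with a median of 0.39. The 7 core subunits of complex I had a median of 0.33 and the 8 assembly factors 0.11. The complex medians were 0.35 (I), 0.26 (II), 0.37 (III), 0.27 (IV) and 0.23 (V). Ndufv1 had 63.2, 67.0 and 66.8 CPM in Sham-E and 99.0, 87.4 and 96.3 in MI-E, a difference of 0.52 ± 0.13 (edgeR adjusted p = 0.244). Ndufb8 had 58.3, 52.0 and 53.5 CPM in Sham-E and 76.3, 82.2 and 73.5 in MI-E, a difference of 0.50 ± 0.12 (edgeR adjusted p = 0.244). Cox5b had 58.9, 55.0 and 52.3 CPM in Sham-E and 86.0, 88.3 and 75.4 in MI-E, a difference of 0.59 ± 0.12 (edgeR adjusted p = 0.244). In all 3 genes the MI-E libraries were the highest of the 12. Cox4i1, the main form of a subunit that regulates complex IV, had 246, 231 and 261 CPM in Sham-E and 327, 400 and 347 in MI-E, a difference of 0.54 ± 0.15. Ndufs3, a core subunit of the matrix arm, differed by 0.60 ± 0.15 and Ndufb9, of the membrane arm, by 0.68 ± 0.18.

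Length bore on this comparison less evenly. The members' medians were 0.43, 0.31, 0.38 and 0.19 in the 4 length ranges from shortest to longest, and those of other genes -0.00, 0.33, 0.24 and -0.02. Of the 62 members under 1000 bases, 34 had all MI-E libraries above Sham-E (54.8%, beside 27.5% of 1503 other genes of that length). Of the 28 longer members, 14 did (50%, beside 9.75% of the others). Correction for length and GC content lowered the members' median to 0.09, beside -0.04 for all genes. On log2(TPM + 1) the members' median was 0.11 and that of all genes -0.16, a difference of 0.27.

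The interaction, the effect of EMPA after ligation minus its effect after the sham operation, passed for no member in edgeR (0.00661% of all genes did). At an unadjusted p under 0.05 there were 16 of 90 members, 14 of them positive, which is 17.8% beside 13.5% of all genes. DESeq2 called Atp5k, Ndufa2 and Uqcr11 (0.909% of all genes), all positive, and both limma fits called none. Without the library MI 1, edgeR called 8 members, beside 0.97% of all genes. The members' median was 0.22 and that of all genes -0.04. The largest estimates were 1.82 ± 0.52 for Atp5k and 1.62 ± 0.52 for Cox6b2, and negative ones included Ndufs4 at -0.43 ± 0.16 and Cox8a at -0.34 ± 0.16.

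The subunits of each complex were also summed in TPM. Complex I summed to 4407 ± 170 in Sham, 3986 ± 179 in Sham-E, 3803 ± 426 in MI and 4643 ± 338 in MI-E (SD, n = 3). Complex V summed to 6200 ± 50.1, 5999 ± 155, 5435 ± 358 and 6333 ± 399 in the same order. Complex III summed to 2016 ± 32.4, 1942 ± 28.8, 1849 ± 212 and 2251 ± 147. In these 3 complexes MI had the lowest mean and MI-E the highest. Complex IV, at 4836 ± 112, 4723 ± 120, 4699 ± 329 and 5175 ± 151, had the same order of MI and MI-E. Complex II ran the other way in summed TPM, at 424 ± 13.5, 426 ± 24.0, 457 ± 29.4 and 412 ± 33.3. Much of the lower MI total lay in the shortest transcripts. All subunits together summed to 17883 in Sham and 16243 ± 1161 in MI. The 6 members under 450 bases summed to 2337 in Sham and 1360 ± 316 in MI. Members of 450 to 1000 bases summed to 11800 and 10886 ± 978, and those of 1000 bases or more to 3992 and 4212 ± 77.2. The order of the groups depended on the scale. In mean log2 CPM of the same subunits, MI-E was highest in every complex, and complex II had 6.76 in MI and 6.81 in MI-E. On that scale MI was lowest only in complex V, at 6.94. In complexes I to IV its mean was above those of Sham and Sham-E, with 5.39 ± 0.18 in MI and 5.34 ± 0.041 in Sham for complex I (SD, n = 3). MI and Sham libraries overlapped in complexes I, III and IV. The library MI 2 was at 5.23 in complex I and 6.12 in complex III, below every Sham library. Neither the sums nor these means were tested.

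**Figure D4:**
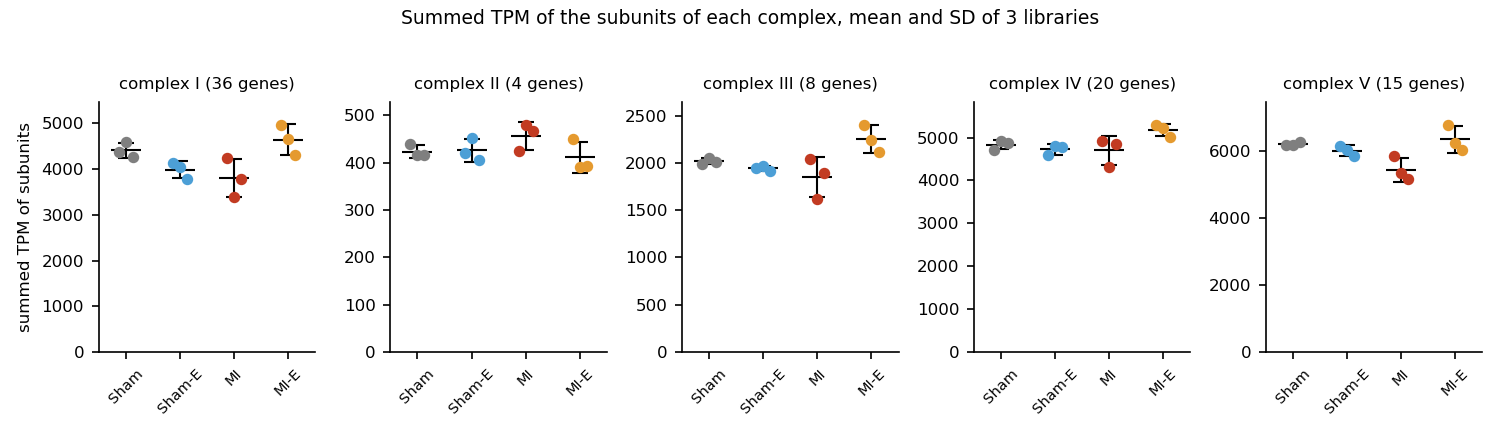
Summed TPM of the subunits of complexes I to V (vertical axes from 0) in each library by group, with lines for the mean and SD of 3. The lowest complex V sums are those of MI, with a mean of 5435, while complex II has its highest mean, 457, in MI.

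Complex II differs in make-up from the others, since all 4 of its subunits are nuclear and one enzyme of the citric acid cycle is formed by them. Sdhc had 66.6, 66.2 and 67.9 CPM in Sham and 79.3, 80.6 and 80.0 in MI, without overlap, and differed by 0.26 ± 0.10 (edgeR adjusted p = 0.190). Sdha differed by -0.22 ± 0.15 in counts, but in TPM it stood at 93.4 ± 5.25 in Sham and 94.3 ± 16.1 in MI. The recovered length of Sdha was 2539 bases in Sham and 1995 in MI, a difference in the transcripts to which the authors' software assigned its reads. Sdhd, a membrane anchor, differed by 0.09 ± 0.13.

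Several complex IV subunits, and a few others, have tissue isoforms. Cox4i1 and Cox6a1 made up nearly all of their pairs: Cox4i2, known from lung and as a gene induced by low oxygen, had 1.21, 0.79 and 1.52 TPM in Sham, 1.12, 0.89 and 1.42 in Sham-E, 3.48, 2.97 and 2.72 in MI and 2.51, 1.43 and 1.31 in MI-E. The MI libraries were the highest of the 12. The edgeR difference between MI and Sham was 1.58 ± 0.44 (adjusted p = 0.0968), and DESeq2 called it at 1.59 (adjusted p = 0.0334). Both rest on few counts of Cox4i2, 10, 7 and 14 in Sham and 36, 24 and 23 in MI. Cox6a2, the heart and skeletal muscle form, had 12.9 to 25.3 TPM in Sham and 6.94 to 8.44 in MI-E, while Sham-E and MI ranged from 4.08 to 18.8. It overlapped in all 4 comparisons by scaled counts. Cox6b2, known from testis, had 70.1, 63.9 and 60.4 TPM in Sham, 24.5, 61.0 and 47.2 in Sham-E, 70.6, 30.3 and 29.8 in MI and 113, 78.2 and 102 in MI-E. The MI-E libraries were the highest of the 12, and MI-E minus Sham-E was 1.40 ± 0.37 in counts (edgeR adjusted p = 0.244). Its common form Cox6b1 had a mean of 319.5 TPM.

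Cox7a1, a muscle form, did not pass the filter, with 0 to 4.15 TPM, beside means of 286.1 TPM for Cox7a2 and 236.0 TPM for Cox7a2l. Cox8b, another muscle form, had 1 count in 1 Sham library and 0 elsewhere, and the testis forms Cox7b2 and Cox8c were at 0 in every library. Their common forms Cox7b and Cox8a had means of 113.2 and 573.0 TPM. Ndufa4l2, a gene known to be induced by low oxygen, had 1 to 4 counts in each Sham and Sham-E library and 0 in all MI and MI-E libraries, too few for a test, beside 342.9 TPM for Ndufa4. Of the genes for the c ring, Atp5g3 had a mean of 363.2 TPM, Atp5g2 248.7 and Atp5g1 239.7. The 3 summed to 907 TPM in Sham, 886 in Sham-E, 688 in MI and 926 in MI-E.

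**Figure D5:**
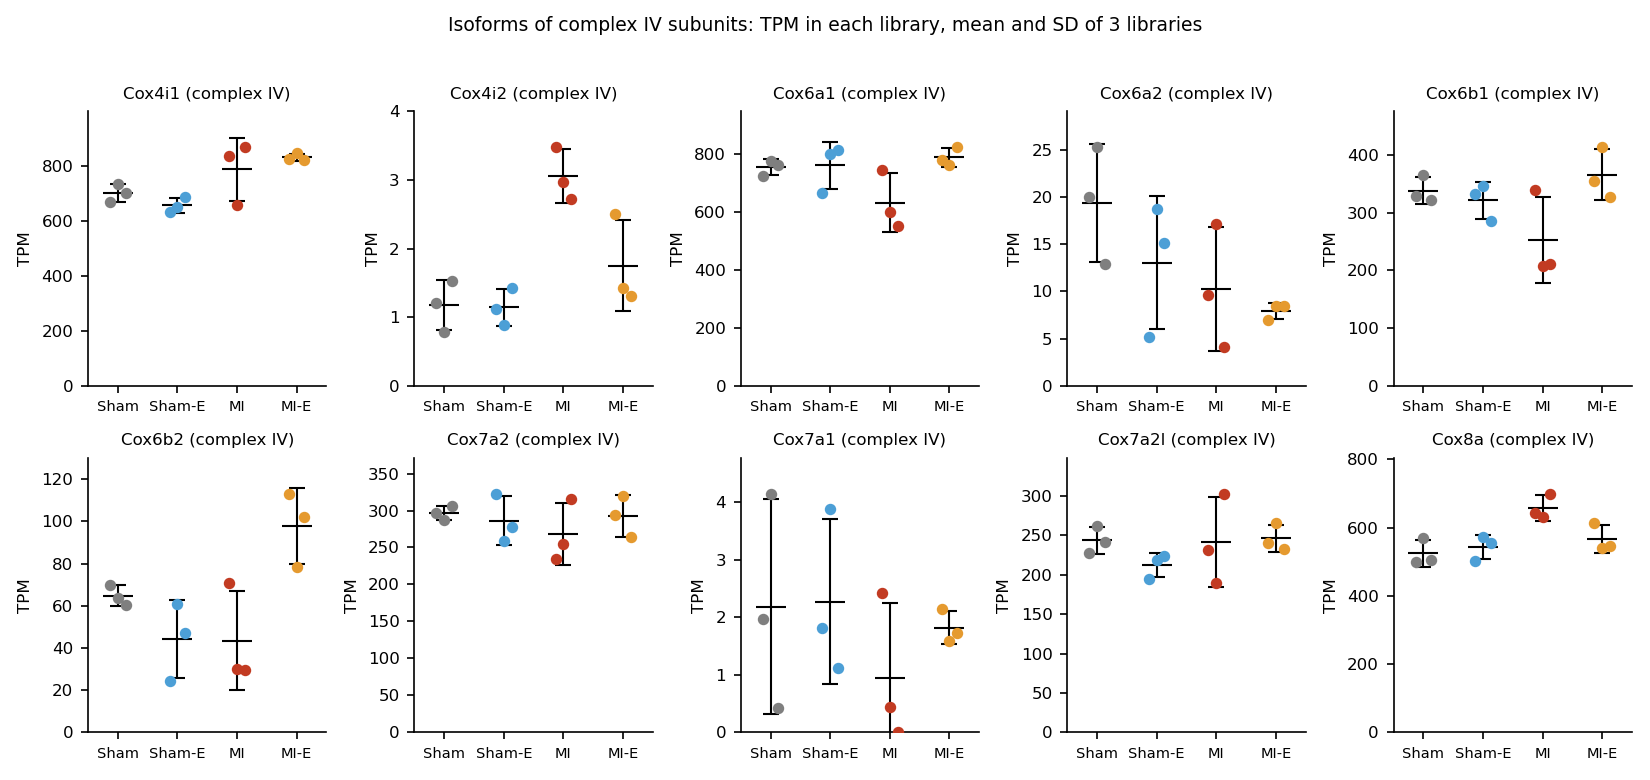
TPM (vertical axes from 0) of complex IV isoforms in each library by group, with lines for the mean and SD of 3; the lower bar of Cox7a1 is clipped at 0. Cox4i2 is highest in MI, at 2.72 to 3.48 TPM, and Cox6b2 in MI-E, at 78.2 to 113 TPM.

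Other named subunits had these levels on the TPM scale. Cox5a had means of 260.2, 261.8, 256.4 and 260.7 TPM in Sham, Sham-E, MI and MI-E, and Atp5b 1264, 1253, 1298 and 1296. Uqcrfs1 had 137.4, 136.4, 127.1 and 149.8 TPM, and in scaled counts its MI-E libraries lay wholly above both MI and Sham-E. Atp5a1 had 467.6, 500.2, 527.4 and 487.3. The MI libraries held the lowest 3 TPM values of the 12 for 9 members, Atp5d, Atp5e, Atp5g2, Atp5k, Uqcr11, Uqcrh, Ndufa4, Ndufa5 and Cox7b, and the highest 3 for 4, Cox4i2, Cox8a, Atp5h and Sdhc. In scaled counts the lowest 3 remained for Atp5k alone, and the highest 3 were found for Cox4i2, Cox8a, Ndufs4 and Sdhb.

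Genes around the chain were read from lists chosen by function. Of 13 subunits coded by mitochondrial DNA, 7 passed the filter and the others were at or near 0. Among these, mt-Co2, mt-Co3, mt-Atp6 and mt-Atp8 were at 0 in all 12 libraries, beside mt-Co1 at 5970 to 17509 TPM. Whether these zeros come from the way reads were assigned was not tested, so they are not read as absence of the transcripts. The mitochondrial share of counts given above holds none from these 4 genes. In MI against Sham all 7 were positive, with a median of 0.98, and 2 rose: mt-Nd6 by 1.61 (edgeR adjusted p = 0.0160) and mt-Nd1 by 1.27 (edgeR adjusted p = 0.0309), both subunits of complex I. The nuclear members' median in the same comparison was 0.09. In MI-E against MI all 7 were negative, with a median of -0.88, and none passed. The gene mt-Nd6 lies antisense to its neighbours and no source used here gives the strand setting of the counts. Cyc1 and Cycs, the cytochromes of complex III and of the carrier to complex IV, did not pass in any comparison. Neither did any of 38 further assembly factors, whose smallest adjusted p was 0.0861 in MI against Sham (Cox16, 0.59) and 0.0851 in MI-E against MI (Sdhaf1, 0.90). The 13 tested regulators of mitochondrial genes and the 16 enzymes of the citric acid cycle had no call either, with medians of -0.09 and 0.09 in MI against Sham.

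Some members share sequence with other genes. By alignment of transcripts, 14 members have a near-identical copy elsewhere, and the highest share of counts held by such copies was 0.417% (Atp5l). Exons of a gene on the opposite strand cover 65.6% of Ndufaf2, 39.0% of Ndufb6, 35.6% of Atp5o and 30.0% of Ndufa13, so counts of these 4 are uncertain where strand was not used.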

How the data were processed

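RNA-seq of total RNA from mouse bone marrow was measured in 12 libraries, 3 in each of 4 groups. The deposited tables hold expected counts and TPM (levels corrected for transcript length) per gene, made by the authors with CASAVA 1.8, STAR 2.4.0j and RSEM on build mm10, per the submitters' processing notes. No source used here gives the gene annotation or the strand setting. Columns of the Sham and MI-E groups carry other numbers than the sample titles, so these were matched to their group only, and library numbers in the text are those of the columns.

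Expected counts were rounded, filtered with filterByExpr and scaled by TMM, which left 15119 genes. R 4.3.3 with edgeR 4.0.16 (quasi-likelihood test) gave log2 fold changes at its default prior count and p-values adjusted over all genes tested. All 4 groups were in 1 fit with 8 residual degrees of freedom. SEs were the fold change divided by the root of F. A prior count of 2 was used in the log2 CPM behind the length and GC correction and the deviations from group means. The call threshold was an adjusted p of 0.05. CPM are the counts scaled by TMM, and libraries do not overlap where the lowest CPM of 1 group is above the highest of the other. TPM carried a pseudocount of 1 on the log2 scale, and a fold change on it understates that of low genes. Transcript and insert lengths were recovered from the ratio of counts to TPM. Lengths, exons on the other strand and near-identical copies (95% identity over 50% of a transcript) came from GENCODE M21, in which 53620 of the 53801 genes had an entry. The procedure was tested on simulated counts.

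Alternatives were DESeq2 1.42.0, limma 3.58.1 (voom on counts, trend on TPM with a mean of at least 1), other scalings and filters, only the groups compared, no robust dispersion, correction for length and GC content (mgcv 1.9.3), the library number as a block, and leaving out each library. Members named are those past the threshold, the 3 with the smallest p in each complex and comparison, core subunits and isoform sets, the highest and lowest by TPM, and those without overlap in most comparisons. The values of 1 member are not reported here. The members and lists were chosen with earlier results of these data known.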

Additional observations from a re-analysis of the deposited data

How the results depend on the processing

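The number of members called in MI against Sham (2 in edgeR) was 9 with DESeq2 and 7 with limma on log2(TPM + 1). It was 1 with only the groups compared (344 of all 14402 genes) and 1 with no filter on low counts (156 of 24969). Limma-voom (39 of 15119) and upper quartile scaling (59 of 15119) called 0 members. In MI-E against MI (0) the number was 6 with DESeq2, 4 with limma on TPM and 2 with no filter (33 of 24969). DESeq2 called 4 in MI-E against Sham-E (0) and 3 in the interaction (0). Limited to members of at least 1000 bases, an alternative chosen after seeing the data, 1 member was called in MI against Sham and the median was 0.19 in MI-E against Sham-E and 0.040 in the interaction. With no filter the complex IV median in MI against Sham was 0.024. With correction for length and GC content the medians of all members and of complexes I to V were 0.012, -0.021, -0.016, -0.028, -0.052 and 0.042 in MI-E against MI, 0.091, 0.094, 0.057, 0.17, 0.081 and 0.023 in MI-E against Sham-E, and -0.062, -0.014, -0.034, -0.027, -0.14 and -0.072 in the interaction, and in Sham-E against Sham 0.061 for all members, 0.069 for complex IV and 0.12 for complex V. On log2(TPM + 1) the medians were -0.10 for all members, -0.11 (I), 0.10 (II), -0.12 (IV) and -0.17 (V) in MI against Sham, -0.26 (II) in MI-E against MI, -0.040 for all members and -0.053 (V) in Sham-E against Sham, 0.11 for all members and 0.16, 0.050, 0.16, 0.067 and 0.056 for complexes I to V in MI-E against Sham-E, and -0.23 (II) in the interaction. With correction for length and GC content the medians of all genes also moved. They were -0.062 in MI-E against MI, -0.043 in MI-E against Sham-E, -0.11 in the interaction and 0.050 in Sham-E against Sham. The cause of these shifts was not tested.

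The main fit did not pair libraries by number. Over 13 pairs with the same number, deviations from the group means correlated at -0.206 to 0.15, and 4 exceeded 0.1. Pairs with different numbers ran from -0.217 to 0.263. With 3 libraries per group, these correlations cannot exclude shared handling of libraries with the same number. With the replicate block 0 members were called in MI against Sham, beside 1 of all 15119 genes (63 without the block). With the block and correction for length and GC content 0 members were called there, beside 0 of all 15119 genes, and the complex II median was 0.12. The medians of all genes in that fit were -0.020 in MI-E against Sham-E, -0.034 in MI-E against MI and -0.068 in the interaction. The medians of all members and of complexes I to V in that fit were 0.13, 0.16, 0.070, 0.26, 0.12 and 0.072 in MI-E against Sham-E. They were 0.035 for all members, 0.057 (I), 0.019 (II), 0.027 (III) and 0.053 (V) in MI-E against MI, 0.068 (IV) and 0.10 (V) in Sham-E against Sham, and 0.00698 for all members, 0.038 (I), 0.035 (II), -0.031 (IV) and -0.00577 (V) in the interaction.

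With 1 library left out at a time, members called ranged from 0 to 8 in MI against Sham. There were 8 without Sham-E 1 (1224 of all 15496 genes) and 5 without MI 2 (285 of 15506). There were 3 without Sham-E 3 (122 of 15505), 1 without MI 1 (115 of 15471) and 0 without any other (1 to 33 genes). In MI-E against MI they ranged from 0 to 18, with 18 without MI 1 (988 of 15471) and 1 without Sham-E 1 (42 of 15496). In the interaction they ranged from 0 to 8, with 8 without MI 1 (150 of 15471). The members' median ranged from 0.00434 to 0.12 in MI against Sham, 0.13 to 0.27 in MI-E against MI, -0.064 to 0.033 in Sham-E against Sham, 0.21 to 0.35 in MI-E against Sham-E and 0.12 to 0.30 in the interaction. For complexes I to V the ranges were -0.000579 to 0.12, 0.14 to 0.20, 0.00037 to 0.13, 0.089 to 0.17 and -0.049 to 0.14 in MI against Sham. In MI-E against MI they were 0.10 to 0.31, 0.058 to 0.14, 0.14 to 0.32, 0.015 to 0.22 and 0.20 to 0.25, and in MI-E against Sham-E 0.27 to 0.41, 0.21 to 0.32, 0.32 to 0.43, 0.20 to 0.36 and 0.17 to 0.28. In Sham-E against Sham they were -0.078 to 0.000742, -0.079 to 0.035, -0.046 to 0.025, -0.065 to 0.080 and -0.038 to 0.081. In the interaction they were 0.13 to 0.35, 0.063 to 0.19, 0.18 to 0.31, 0.081 to 0.23 and 0.15 to 0.31.

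Only a selection of members and comparisons was followed through the settings, and among these the sign changed in 8 cases. On log2(TPM + 1), Sdha was at 0.000777 in MI against Sham, -0.28 in MI-E against MI and -0.44 in the interaction, Cox5b at -0.00444 in MI against Sham, and Atp5b at -0.012 and Sdhc at 0.047 in Sham-E against Sham. Without Sham-E 1, Sdha was at -0.069 and Uqcrb at -0.00595 in Sham-E against Sham. Members outside that selection also changed sign between scales. In MI against Sham, Atp5j2 was at 0.34 in counts and -0.80 on log2(TPM + 1), and Cox5a at 0.19 and -0.030.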
